A study of Mus musculus with 9 samples.

Results

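The genes described here are 39 of the 24444 gene symbols counted in 9 mouse RNA-seq libraries. They were chosen by name for their roles with earlier results of these data known, so their shares beside all genes only describe the list. They encode enzymes of serine, asparagine, proline, cysteine and glutamine metabolism, transcription factors and effectors of the ATF4 stress response, and carriers that move amino acids across the plasma membrane. Of the 39, 38 had enough counts to be tested, and Fgf21 did not. The libraries fall into 3 groups of 3. MycT58A tumours and EV tumours both grew in CD1-nude hosts, mice that lack a thymus, from implanted cells of Blbp-Cre animals. The implanted cells carried Ctnnb1Ex3flx/flx, Trp53flx/flx and Pik3caE545K in both tumour groups. Removal of exon 3 stabilises beta-catenin, the protein of Ctnnb1, and models WNT-medulloblastoma. The Pik3caE545K allele was +/flx in the cells' background strain. The tumour groups differ in a further term of the genotype, either MycT58A, a form of Myc whose T58A change slows degradation of the protein, or EV, which the labels do not spell out. The third group, called control below, is cerebellum without tumour from CD1-nude mice, although the dissection note speaks of cortex. The Blbp promoter is active in radial glia and neural progenitors. The labels give no age, and nothing in them tells whether a group's 3 tumours began as separate cultures. P-values therefore measure only how these libraries spread, which may be technical. GFP-positive regions were dissected, so host cells can be present in the tumour RNA.

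Serine is made from a glycolytic intermediate in 3 steps by Phgdh, Psat1 and Psph, and feeds glycine, one-carbon units and cysteine. When an uncharged tRNA activates the kinase GCN2 or the endoplasmic reticulum is stressed, phosphorylation of eIF2 lowers general translation and raises translation of the Atf4 mRNA. ATF4 then pairs with C/EBP proteins on a composite site, the C/EBP-ATF response element, near amino-acid synthesis and transport genes. Because ATF4 is controlled largely by translation, the level of its mRNA is no measure of its activity. MYC-MAX dimers bind E-boxes, and MYC is known to raise serine, proline and glutamine metabolism in proliferating cells.

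Total counts per library ranged from 16631523 to 30410089. Levels below are CPM, counts relative to library sizes scaled with the TMM method, and differences were tested with edgeR's quasi-likelihood test on all 9 libraries, with p-values adjusted over the 15171 genes tested. A gene is called changed where its adjusted p lay under 0.05. The fit estimates a gene's spread over all 9 libraries, so each p also carries the spread of the group not compared. For Myc itself the MycT58A libraries held 918, 859 and 727 CPM, the EV libraries 360.0, 19.9 and 762 CPM and the controls 0.94, 1.59 and 32 CPM, so the library labelled EV replicate 3 lay inside the MycT58A range. Myc stood at 2.19-fold in MycT58A against EV tumours and was not called (edgeR adjusted p = 0.592). Summed marker genes in MycT58A libraries ran over 123 to 166 CPM for cerebellar granule neurons (8 genes), 168 to 544 for astrocytes (9 genes), 73.3 to 157 for microglia and macrophages (10 genes), 62.1 to 108 for endothelium (9 genes), 1442 to 1766 for pericytes and fibroblasts (8 genes) and 2137 to 2454 for proliferation (6 genes). The same sums in EV libraries ran over 78.2 to 106 CPM for cerebellar granule neurons, 706 to 1434 for astrocytes, 423 to 639 for microglia and macrophages, 69.3 to 347 for endothelium, 2728 to 11886 for pericytes and fibroblasts and 468 to 1378 for proliferation. In controls they ran over 4234 to 5976 CPM for cerebellar granule neurons, 4128 to 8969 for astrocytes, 194 to 244 for microglia and macrophages, 229 to 252 for endothelium, 279.5 to 359.6 for pericytes and fibroblasts and 59 to 90.7 for proliferation. Purkinje cell markers (6 genes) stood at 97.6 to 162 CPM in MycT58A, 99.1 to 309.8 CPM in EV and 11119 to 11973 CPM in control libraries. None of these marker genes was without counts in any group. Single genes held much of some sums. Zic2 gave 57.8 to 67.5 CPM of the granule neuron sum in EV and 97.5 to 111 CPM in MycT58A libraries. Itpr1 gave most of the Purkinje cell sum in tumours, at 89 to 287 CPM in EV and 79.5 to 118.5 CPM in MycT58A libraries. Tmem119 gave 338 of the 499 CPM for microglia and macrophages in EV replicate 3, and 36.8 and 35.7 CPM in EV replicates 1 and 2. Aldoc gave 2033 to 6147 CPM of the astrocyte sum in controls. In bulk tissue, fewer cells of a type and less RNA per cell cannot be told apart, and the part of cell composition in the differences below was not tested.

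The start-site windows of the members are shown first because many of these genes are known ATF4 targets. RefSeq windows of 300 bases (250 before to 50 after the start, GRCm38.p6) were found for 31 of the 39 members, in 38 windows. Cth, Gls2, Slc1a5, Slc7a5, Slc7a2, Slc7a3, Slc38a1 and Slc38a3 had no window and were not searched for motifs. The core of the C/EBP-ATF response element, TGATGNAA on either strand, was found in 9 of the 38 windows (23.7%), against 3.97% of all 32851 windows. The E-box CACGTG, which reads the same on both strands, was found in 5 windows (13.2%), against 7.15% of all windows. The members include genes known as ATF4 targets, so the first share is a description of the list and not independent of how it was drawn up. Matches to the ATF4 core lay in the windows of Asns, Pycr1, Atf3, Trib3, Chac1, Fgf21, Got1, Slc1a4 and Slc7a11, and E-boxes in those of Aldh18a1, Fgf21, Cbs, Slc38a5 and Slc43a1. No ATF4 core was found in the windows of Phgdh, Psat1 or Psph. In Fgf21, whose window held both motifs, the matches did not overlap. The 6 windows below are printed 5′ to 3′ on the strand of the gene with the match in capitals: Asns with the match 23 bases before the start, Pycr1 with it 103 bases before, Got1 with it 102 bases before, Slc7a11 with 2 matches 66 and 47 bases before, Trib3 with it 14 bases after the start base, and Aldh18a1 with its E-box 59 bases before. The Trib3 window was added after its values were seen.
Asns, chr6:7693160-7693459, minus strand: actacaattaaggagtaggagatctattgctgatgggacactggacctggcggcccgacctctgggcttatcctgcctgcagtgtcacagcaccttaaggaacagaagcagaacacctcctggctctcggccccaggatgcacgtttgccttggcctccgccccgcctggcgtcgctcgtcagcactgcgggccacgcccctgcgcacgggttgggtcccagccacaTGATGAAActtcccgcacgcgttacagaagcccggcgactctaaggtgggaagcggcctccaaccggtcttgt
Pycr1, chr11:120643699-120643998, minus strand: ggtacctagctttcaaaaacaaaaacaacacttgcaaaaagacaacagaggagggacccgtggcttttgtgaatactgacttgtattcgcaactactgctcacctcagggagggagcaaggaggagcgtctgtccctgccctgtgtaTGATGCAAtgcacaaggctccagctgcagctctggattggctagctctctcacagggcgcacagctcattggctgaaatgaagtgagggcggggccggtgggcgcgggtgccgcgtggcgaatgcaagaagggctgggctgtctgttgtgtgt
Got1, chr19:43524556-43524855, minus strand: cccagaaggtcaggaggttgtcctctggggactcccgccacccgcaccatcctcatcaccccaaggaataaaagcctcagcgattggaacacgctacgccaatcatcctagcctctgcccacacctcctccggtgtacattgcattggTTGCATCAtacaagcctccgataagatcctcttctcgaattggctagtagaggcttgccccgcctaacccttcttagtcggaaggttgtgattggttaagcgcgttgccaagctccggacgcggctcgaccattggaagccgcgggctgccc
Slc7a11, chr3:50443564-50443863, minus strand: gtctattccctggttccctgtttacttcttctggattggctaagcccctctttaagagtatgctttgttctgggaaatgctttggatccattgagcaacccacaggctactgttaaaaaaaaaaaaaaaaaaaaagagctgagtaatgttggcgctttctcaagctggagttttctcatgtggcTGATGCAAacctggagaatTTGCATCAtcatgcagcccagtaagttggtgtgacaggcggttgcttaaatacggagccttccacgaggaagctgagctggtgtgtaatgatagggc
Trib3, chr2:152344011-152344310, minus strand: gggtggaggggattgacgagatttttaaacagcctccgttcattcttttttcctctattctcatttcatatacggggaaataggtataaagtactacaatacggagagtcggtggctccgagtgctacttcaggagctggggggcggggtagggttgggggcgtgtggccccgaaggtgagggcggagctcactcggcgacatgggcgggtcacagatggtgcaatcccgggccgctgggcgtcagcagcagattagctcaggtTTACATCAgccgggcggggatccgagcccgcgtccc
Aldh18a1, chr19:40588414-40588713, minus strand: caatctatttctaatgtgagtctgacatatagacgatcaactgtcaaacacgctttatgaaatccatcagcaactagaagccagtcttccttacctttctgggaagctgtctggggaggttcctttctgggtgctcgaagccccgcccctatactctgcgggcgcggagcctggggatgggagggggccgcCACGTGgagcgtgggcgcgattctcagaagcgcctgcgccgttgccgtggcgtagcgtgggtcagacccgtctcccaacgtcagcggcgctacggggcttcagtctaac

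Most of the 38 tested members differed between tumour and cerebellum, and few differed between the tumour groups. In MycT58A tumours against control, 23 rose and 6 fell, or 76.3% of members, where 62.2% of all genes tested were called. In EV tumours against control, 18 rose and 8 fell, or 68.4%, where 57% of all genes were called. In MycT58A against EV tumours, 4 rose (Psat1, Aldh18a1, Got1 and Slc7a6) and 2 fell (Cebpb and Slc7a8), or 15.8% of members against 8.3% of all genes. The share is 3.28% of all genes for rises and 5.02% for falls in that comparison. Rises outnumbered falls among the members in all 3 comparisons, while of all genes 31.2% rose and 31% fell in MycT58A tumours and 30.7% rose and 26.3% fell in EV tumours against control. The comparisons share libraries and are not independent of each other. The libraries did not overlap for 34 members between MycT58A tumours and control, where that held for 82.5% of all genes, and for 25 members between EV tumours and control, where it held for 62.5%. Median log2 fold changes of the members were 1.42 in MycT58A and 1.12 in EV tumours against control, where the medians of all genes were -0.03 in MycT58A and 0.14 in EV tumours. Between MycT58A and EV tumours the median member stood at 1.69-fold (log2 0.76, against -0.04 for all genes), and the libraries of those groups did not overlap for 19 members, where that held for 31.8% of all genes. All 6 calls between the tumour groups ended when any 1 MycT58A library was left out (edgeR adjusted p = 0.0668 to 0.137), where 0.232% to 0.451% of all genes were called. With only those 2 groups in the fit, edgeR called 0 members higher and 0 lower (adjusted p = 0.0641 to 0.156) and 0.24% of all genes. At an unadjusted p under 0.05 that fit had 11 members higher and 3 lower, against 6.94% and 15% of all genes. DESeq2 called 10 members higher and 3 lower and 23.4% of all genes, and limma-voom with weights per group 4 and 2 members and 2.96% of all genes.

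**Figure D1:**
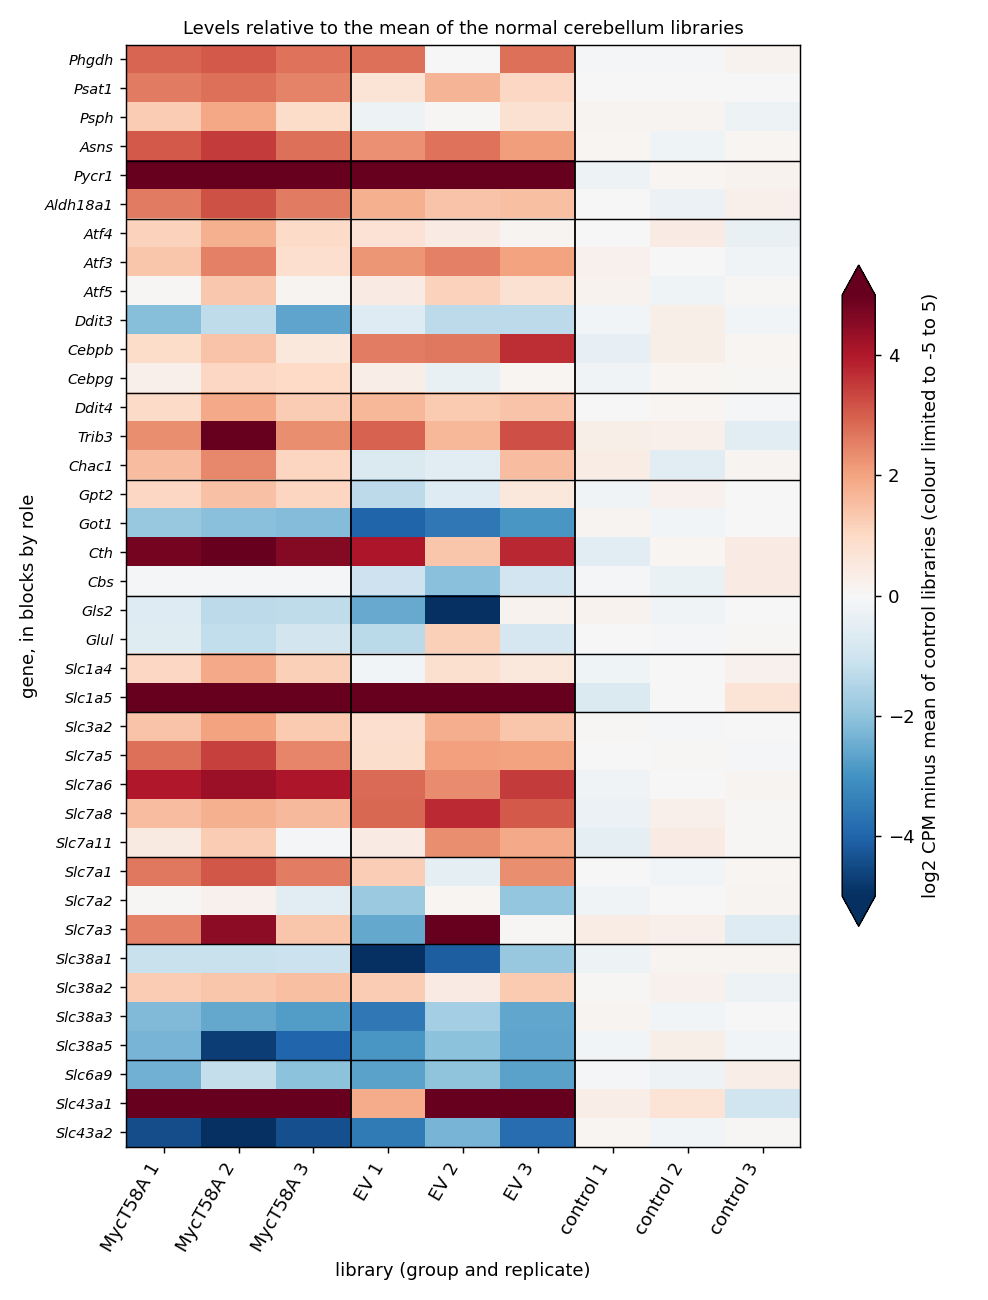
Heat map of the 38 tested members (rows, in blocks by role) in the 9 libraries (columns, with MycT58A tumours on the left, EV tumours in the middle and normal cerebellum on the right). Colour gives log2 CPM minus the mean of the control libraries, limited to -5 to 5. Pycr1, Slc1a5 and Cth are dark red in nearly all tumour libraries and Got1, Slc38a3 and Slc43a2 are blue, while the EV columns differ from each other in Phgdh, Gls2, Glul and Slc7a3.

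The enzymes of serine and asparagine synthesis were higher in tumours, and in MycT58A tumours all 4 rose against control. In EV tumours Phgdh, Psat1 and Asns rose and Psph did not pass. Phgdh, which catalyses the first step from 3-phosphoglycerate (chromosome 3, 98313170 to 98339990, mm10), was at 583, 663 and 513 CPM in MycT58A libraries, 534, 79.3 and 528 CPM in EV libraries and 75.4, 72.7 and 87.5 CPM in controls. EV replicate 2 thus lay among the controls, while EV replicates 1 and 3 lay in the MycT58A range. Phgdh rose 7.47-fold in MycT58A (edgeR adjusted p = 0.00324) and 4.84-fold in EV tumours against control (edgeR adjusted p = 0.0108). Psat1, the transaminase of the second step (chromosome 19, 15904678 to 15947337), stood at 544, 605 and 505 CPM in MycT58A libraries, 144, 290.1 and 186 CPM in EV libraries and 89.8, 89 and 90.5 CPM in controls. The 3 groups did not overlap, and EV replicate 2, low for Phgdh, was the highest EV library for Psat1. Psat1 rose 2.67-fold in MycT58A against EV tumours (log2 fold change 1.41 ± 0.26 SE, edgeR adjusted p = 0.0214), 6.14-fold in MycT58A against control (adjusted p = 0.000102) and 2.3-fold in EV against control (adjusted p = 0.00425). The call against EV ended without control replicate 2 (adjusted p = 0.0501) or without any 1 MycT58A library (adjusted p = 0.0821 to 0.0852).

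Psph, the phosphatase that releases serine, stood at 41, 65.7 and 32.7 CPM in MycT58A libraries, 14.3, 17.8 and 28.8 CPM in EV libraries and 19, 18.7 and 14.3 CPM in controls. EV replicates 1 and 2 lay in or next to the control range. Psph rose 2.68-fold in MycT58A tumours against control (edgeR adjusted p = 0.00701), and stood at 2.29-fold against EV tumours (adjusted p = 0.0655), where it passed without EV replicate 3 (0.0172) and with DESeq2 (0.0177). Its annotation shares 452 exon bases with Cct6a on the opposite strand, and the strand setting of the counting is not given in the sources used here. Asns makes asparagine from aspartate with the amide of glutamine (chromosome 6, 7675169 to 7693254), and its window above holds the ATF4 core. It stood at 908, 1237 and 727 CPM in MycT58A libraries, 526, 716 and 471 CPM in EV libraries and 116, 94.5 and 118 CPM in controls. Every tumour library lay far above the controls, and the lowest MycT58A library lay just above the highest EV library. Asns rose 8.73-fold in MycT58A (3.13 ± 0.28 SE on the log2 scale, edgeR adjusted p = 5.78e-05) and 5.21-fold in EV tumours against control (adjusted p = 0.000193). Between the tumour groups it stood at 1.68-fold (adjusted p = 0.0965), which passed without EV replicate 2 (adjusted p = 0.038).

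Both proline enzymes rose against cerebellum. Aldh18a1, which reduces glutamate on the way to proline and ornithine (chromosome 19, 40550257 to 40588463), stood at 198, 295 and 196 CPM in MycT58A libraries, 112, 88.1 and 92.3 CPM in EV libraries and 32.6, 26.4 and 39.1 CPM in controls. The groups did not overlap, and among the tested members its EV libraries lay closest together, within 0.35 log2 units. Aldh18a1 rose 2.35-fold in MycT58A against EV tumours (1.24 ± 0.23 SE on the log2 scale, edgeR adjusted p = 0.023), 7.02-fold in MycT58A against control (adjusted p = 5.39e-05) and 2.98-fold in EV against control (adjusted p = 0.000735). The first call ended without control replicate 1, 2 or 3 (adjusted p = 0.0587, 0.0512 and 0.0507), without any 1 MycT58A library (0.0779 to 0.0855) and with limma-voom (0.119). Pycr1, the mitochondrial reductase of the last step (chromosome 11, 120635712 to 120643769), was under 1 CPM in cerebellum, at 74.4, 175 and 71.5 CPM in MycT58A libraries, 76.9, 36.8 and 303 CPM in EV libraries and 0.531, 0.709 and 0.747 CPM in controls. EV replicate 3 was the highest of all libraries and MycT58A replicate 2 the next. Pycr1 rose 161-fold in MycT58A (edgeR adjusted p = 0.000274) and 208-fold in EV tumours against control (adjusted p = 0.00028). The EV value was 87.4-fold without EV replicate 3. Pycr1 did not pass between the tumour groups (1.29-fold lower in MycT58A, adjusted p = 0.738), and its direction turned without EV replicate 3 (log2 0.91) and with limma-voom (log2 0.089).

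Of the transaminases and the enzymes that turn homocysteine into cysteine, Got1 and Cth moved furthest from cerebellum, in opposite directions. Got1, the cytosolic aspartate transaminase that also serves the malate-aspartate shuttle (chromosome 19, 43499752 to 43524605), stood at 96.1, 82.8 and 78.2 CPM in MycT58A libraries, 22.3, 29.8 and 46.8 CPM in EV libraries and 391, 325 and 349.8 CPM in controls. The groups did not overlap, with EV tumours lowest, and the Got1 window above holds the ATF4 core. It fell 4.15-fold in MycT58A (edgeR adjusted p = 0.000338) and 10.8-fold in EV tumours against control (adjusted p = 5.44e-05). It rose 2.6-fold in MycT58A against EV tumours (1.38 ± 0.27 SE on the log2 scale, adjusted p = 0.0249). That call ended without control replicate 1, 2 or 3 (adjusted p = 0.0587, 0.0601 and 0.0583) or without any 1 MycT58A library (0.0855 to 0.0994). Gpt2, the mitochondrial alanine transaminase, stood at 67.2, 90 and 68.7 CPM in MycT58A libraries, 13, 20.9 and 47.4 CPM in EV libraries and 28.5, 37.2 and 32.3 CPM in controls, so only EV replicate 3 exceeded the controls among EV libraries. It rose 2.3-fold in MycT58A tumours against control (edgeR adjusted p = 0.0343), a call that ended without any 1 of the control or MycT58A libraries (adjusted p = 0.0582 to 0.107) and with library size alone (0.0544). Gpt2 stood at 2.78-fold against EV tumours (adjusted p = 0.0646), at 4.46-fold without EV replicate 3 (0.00306), and passed with DESeq2 (0.0145). Without EV replicate 3 it also passed as 1.9-fold lower in EV tumours against control (0.0175).

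Cth releases cysteine from cystathionine and stood at 40.1, 57.1 and 35 CPM in MycT58A libraries, 24.3, 3.74 and 20 CPM in EV libraries and 0.94, 1.51 and 1.87 CPM in controls. No tumour library overlapped the controls, and EV replicate 2 was the lowest tumour library. Cth rose 30.6-fold in MycT58A (edgeR adjusted p = 0.000441) and 11.1-fold in EV tumours (adjusted p = 0.00235). Cbs, which forms cystathionine, stood at 42.1, 43.5 and 43.7 CPM in MycT58A libraries, 22, 10.7 and 23.1 CPM in EV libraries and 43.8, 35.9 and 60.1 CPM in controls. Cbs fell 2.5-fold in EV tumours (adjusted p = 0.00762, or 0.055 with limma-voom), and the MycT58A libraries lay within the control range (adjusted p = 0.77). Against EV tumours Cbs stood at 2.32-fold in MycT58A tumours with no overlap of libraries (edgeR adjusted p = 0.0521), and it passed with DESeq2 and without EV replicate 2 or 3.

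**Figure D2:**
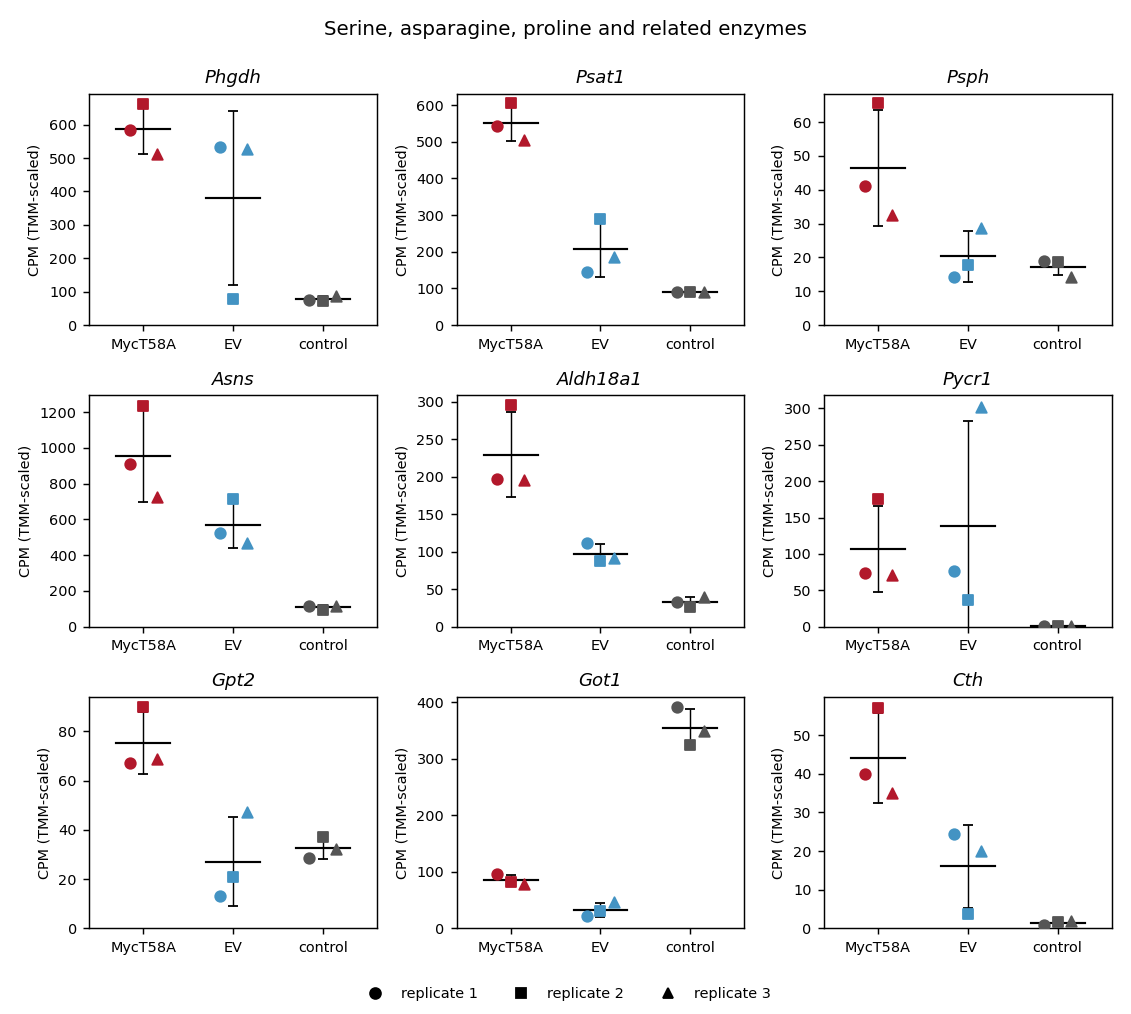
CPM of 9 enzymes in each library of MycT58A tumours, EV tumours and normal cerebellum (left to right in each panel, linear axes from 0). Symbols are single libraries by replicate, lines are means and bars SD (n = 3, bars that reach below 0 are cut there). MycT58A libraries lie above all EV libraries for Psat1, Psph, Asns, Aldh18a1, Gpt2, Got1 and Cth, and EV replicate 2 lies at the control level for Phgdh.

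Neither gene of glutamine metabolism passed with all 9 libraries in edgeR. Glul, glutamine synthetase, which in brain is high in astrocytes, stood at 764, 489 and 611 CPM in MycT58A libraries, 454, 2660.5 and 652 CPM in EV libraries and 1182, 1082 and 1213 CPM in controls. EV replicate 2 stood far above every other library, while EV replicates 1 and 3 and all MycT58A libraries lay below every control. Glul stood at 1.86-fold lower in MycT58A tumours against control (edgeR adjusted p = 0.21) and 1.08-fold in EV tumours (adjusted p = 0.875). Without EV replicate 2 it was lower in EV tumours (log2 -1.06, adjusted p = 0.0053) and, in the same fit, lower in MycT58A tumours (adjusted p = 0.0055). Glul also passed as lower in MycT58A tumours with only MycT58A and control libraries in the fit (edgeR adjusted p = 0.00173) and with limma-voom (0.00166). Each of those settings called 80.5% of all genes in that comparison. Summed astrocyte markers were 1434 CPM in EV replicate 2 and 714 and 706 CPM in EV replicates 1 and 3, and their part in the Glul level was not tested. Aldoc alone gave 650 of those 1434 CPM, and 51.4 and 40.4 CPM in EV replicates 1 and 3. Gls2, a glutaminase that turns glutamine into glutamate, stood at 11.2, 6.99 and 7.16 CPM in MycT58A libraries, 2.95, 0.127 and 19.6 CPM in EV libraries and 19.7, 15.1 and 17.4 CPM in controls. EV replicate 2 was nearly without Gls2 and EV replicate 3 lay at the control level. Without EV replicate 3, Gls2 was 10.8-fold lower in EV tumours against control (edgeR adjusted p = 0.018), and with limma-voom it passed in EV (0.0466) and in MycT58A tumours (0.00643). With only MycT58A and control libraries in the fit it passed in MycT58A tumours too (edgeR adjusted p = 0.00335).

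The transcription factors did not move as a block. Atf4 (chromosome 15, 80255184 to 80257541) stood at 109, 171 and 96.5 CPM in MycT58A libraries, 81, 66.9 and 54.7 CPM in EV libraries and 48.8, 65.7 and 38.2 CPM in controls. MycT58A libraries lay above all others, with replicate 2 highest, while EV libraries overlapped the controls. Atf4 mRNA rose 2.46-fold in MycT58A tumours against control (edgeR adjusted p = 0.00475), and stood at 1.33-fold in EV tumours (adjusted p = 0.255) and at 1.86-fold between the tumour groups (adjusted p = 0.084, or 0.038 with DESeq2). Ddit3, which encodes the pro-apoptotic factor CHOP, went the other way, at 4.46, 8.23 and 3.11 CPM in MycT58A libraries, 12.7, 7.94 and 7.99 CPM in EV libraries and 18, 24.6 and 18.1 CPM in controls. No tumour library reached the lowest control. Ddit3 fell 3.84-fold in MycT58A (edgeR adjusted p = 0.00317) and 2.12-fold in EV tumours (adjusted p = 0.0428). The EV call ended without any 1 control library, EV replicate 2 or 3 or MycT58A replicate 1 (adjusted p = 0.0611 to 0.153), with no low-count filter (0.0772) and with limma-voom (0.195). Ddit3 shares 68 exon bases with Mars on the opposite strand, and Mars rose in both tumour groups.

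Cebpb, a C/EBP factor of stress and inflammation (chromosome 2, 167688915 to 167690418), was highest in EV tumours, at 4.61, 6.46 and 3.45 CPM in MycT58A libraries, 14.3, 15.4 and 31.8 CPM in EV libraries and 1.76, 2.97 and 2.57 CPM in controls. The groups did not overlap. Cebpb fell 4.23-fold in MycT58A against EV tumours (-2.08 ± 0.42 SE on the log2 scale, edgeR adjusted p = 0.027) and rose 8.42-fold in EV tumours against control (adjusted p = 0.000587). The fall ended without control replicate 1, 2 or 3 (adjusted p = 0.0557, 0.0601 and 0.0593) or without any 1 MycT58A library (0.0801 to 0.119). In MycT58A tumours against control Cebpb stood at 1.99-fold (adjusted p = 0.0647), and passed without EV replicate 3 (0.0257). It also passed there with only MycT58A and control libraries in the fit (edgeR adjusted p = 0.0232) and with limma-voom (0.013). Each of those 2 settings called 80.5% of all genes. Microglia and macrophage markers were also lower in MycT58A than in EV libraries by the sums above, 4 of those 10 genes being called, and their part in the Cebpb difference was not tested. In EV replicate 3, the highest library for Cebpb, Tmem119 alone gave 338 of the 499 CPM of that sum. Cebpb shares 312 exon bases with Tmem189 on the opposite strand. Cebpg, a partner of ATF4, stood at 64.8 ± 18.3 CPM in MycT58A, 38.1 ± 9.32 CPM in EV and 37 ± 3.74 CPM in control libraries (SD, n = 3), and its rise in MycT58A tumours of 1.75-fold (adjusted p = 0.0296) ended without any 1 control library or without MycT58A replicate 2 or 3 (adjusted p = 0.0694 to 0.104). Atf3, an early stress factor, averaged 5.22 ± 3.23 CPM in MycT58A, 7.42 ± 1.36 CPM in EV and 1.5 ± 0.207 CPM in control libraries (SD, n = 3). It rose 3.48-fold in MycT58A (adjusted p = 0.0092, or 2.28-fold without replicate 2) and 4.95-fold in EV tumours (adjusted p = 0.00357). Atf5, whose translation is controlled like that of Atf4, did not pass with all 9 libraries, at 29.6, 72.8 and 31.6 CPM in MycT58A libraries, 38.4, 63.2 and 48.4 CPM in EV libraries and 31.9, 24.6 and 29.6 CPM in controls. Without MycT58A replicate 2 it passed in EV tumours against control (1.74-fold higher, adjusted p = 0.0252).

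Of the effectors, Ddit4 and Trib3 rose in both tumour groups and Chac1 in MycT58A tumours. Ddit4, an inhibitor of mTORC1, rose 2.71-fold in MycT58A (edgeR adjusted p = 0.00132) and 2.77-fold in EV tumours (adjusted p = 0.00144). It averaged 72.8 ± 24.6 CPM in MycT58A, 74.5 ± 9.72 CPM in EV and 26.9 ± 1.91 CPM in control libraries (SD, n = 3). Trib3, a pseudokinase that ATF4 induces and that damps the response, was chosen for display after its values were seen and stood at 5.18, 36.1 and 5.12 CPM in MycT58A libraries, 8.12, 3.27 and 9.58 CPM in EV libraries and 1.19, 1.15 and 0.653 CPM in controls. A single library, MycT58A replicate 2, stood far above the others. Trib3 rose 15.4-fold in MycT58A tumours against control (edgeR adjusted p = 0.00467), or 5.17-fold without that library, and 6.97-fold in EV tumours (adjusted p = 0.0212), a call that ended without any 1 control library (adjusted p = 0.0567 to 0.0738) and with limma-voom (0.241). Chac1, which breaks down glutathione, stood at 11.6, 20.8 and 8.23 CPM in MycT58A libraries, 2.33, 2.63 and 11.6 CPM in EV libraries and 5.15, 2.7 and 4.29 CPM in controls. Its rise of 3.34-fold in MycT58A tumours (adjusted p = 0.0493) lay at the threshold and ended without any 1 control or MycT58A library (adjusted p = 0.0523 to 0.164) and with RLE scaling, library size alone or no low-count filter (0.0532 to 0.0609). Against EV tumours Chac1 stood at 2.47-fold (adjusted p = 0.215), and at 5.48-fold without EV replicate 3 (0.0132). Fgf21, a hormone that ATF4 induces in liver, had 3, 13 and 0 counts in MycT58A libraries, 1, 3 and 1 counts in EV libraries and 1, 0 and 0 counts in controls, too few for a test, and 13 of them lay in MycT58A replicate 2.

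**Figure D3:**
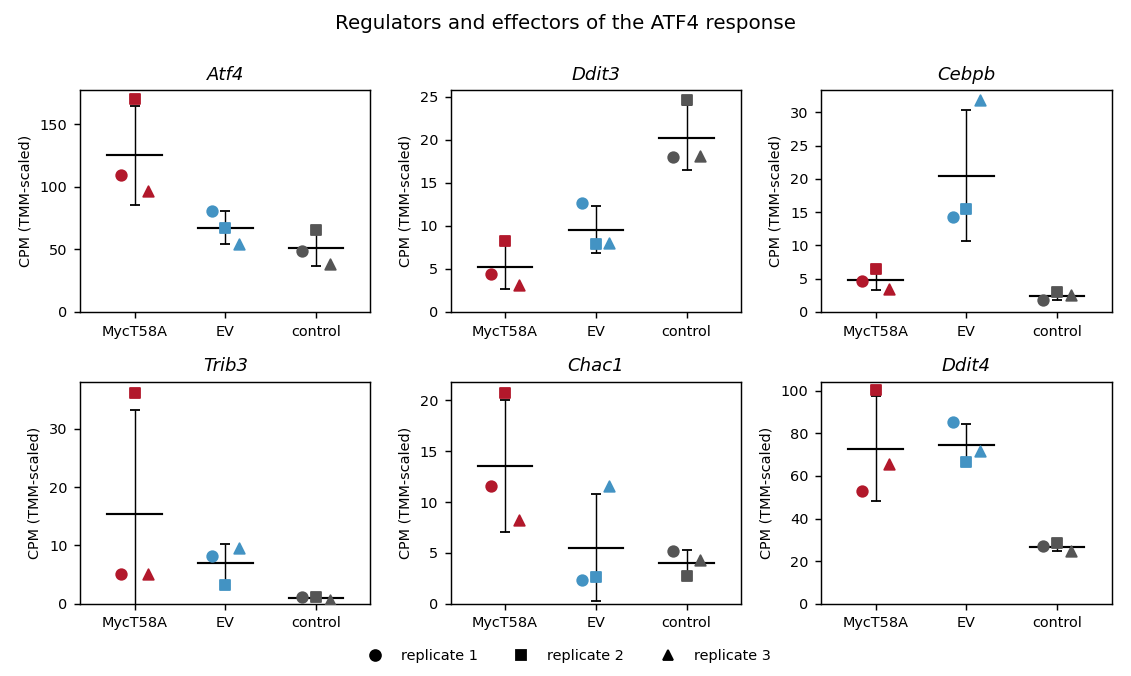
CPM of 6 regulators and effectors in each library of MycT58A tumours, EV tumours and normal cerebellum (left to right, linear axes from 0). Symbols are single libraries by replicate, lines are means and bars SD (n = 3, bars that reach below 0 are cut there). MycT58A replicate 2 (square) is the highest MycT58A library in every panel, Ddit3 is lower in all tumour libraries than in controls, and Cebpb is highest in EV tumours.

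Transporters differed by family. All 5 members of the CD98 group, the heavy chain Slc3a2 and the light chains that pair with it, rose in EV tumours, and 4 of them rose in MycT58A tumours. Slc3a2 (chromosome 19, 8706882 to 8723369) stood at 334, 498 and 309 CPM in MycT58A libraries, 221, 445 and 327 CPM in EV libraries and 130.3, 117 and 127 CPM in controls. The tumour groups overlapped widely and both lay above the controls, by 3.04-fold in MycT58A (edgeR adjusted p = 0.00161) and 2.65-fold in EV tumours (adjusted p = 0.00374). Slc7a5, the light chain LAT1 for large neutral amino acids (chromosome 8, 121881150 to 121907694), stood at 462, 728 and 370.5 CPM in MycT58A libraries, 127, 284 and 273 CPM in EV libraries and 70.2, 71.6 and 64.2 CPM in controls. The groups did not overlap, with a rise of 7.58-fold in MycT58A (edgeR adjusted p = 0.000265) and 3.32-fold in EV tumours (adjusted p = 0.00356), and 2.28-fold between them (adjusted p = 0.068; it passed with DESeq2 and without EV replicate 2 or 3). LAT1 is high in brain endothelium, whose summed markers were lower in MycT58A tumours than in controls and ranged widely in EV tumours, and their part in the Slc7a5 level was not tested. Of those 9 markers edgeR called 3 lower and 0 higher in MycT58A tumours against control. Cdh5 and Emcn were among those that did not pass (edgeR adjusted p = 0.742 and 0.73).

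The light chains of the CD98 group differed in how the tumour groups stood to each other. Slc7a6, which exchanges cationic for neutral amino acids (chromosome 8, 106168857 to 106198706), stood at 153, 185 and 157 CPM in MycT58A libraries, 68.3, 49.6 and 107 CPM in EV libraries and 8.38, 9.66 and 10.5 CPM in controls. It rose 17.3-fold in MycT58A against control (edgeR adjusted p = 3.19e-05), 7.89-fold in EV against control (adjusted p = 0.000102) and 2.2-fold in MycT58A against EV tumours (1.14 ± 0.28 SE on the log2 scale, adjusted p = 0.0424). The last call ended without any 1 control library or EV replicate 1 (adjusted p = 0.0645 to 0.0931), without any 1 MycT58A library (0.118 to 0.137), with library size alone (0.0595) and with no low-count filter (0.0689). Slc7a8, the light chain LAT2 (chromosome 14, 54722209 to 54781946), was highest in EV tumours, at 89.3, 107 and 95.2 CPM in MycT58A libraries, 229, 411 and 257 CPM in EV libraries and 25.3, 36.5 and 31.9 CPM in controls. No libraries of different groups overlapped, with EV replicate 2 highest. Slc7a8 fell 3.08-fold in MycT58A against EV tumours (-1.62 ± 0.26 SE on the log2 scale, edgeR adjusted p = 0.0144) and rose 3.11-fold in MycT58A (adjusted p = 0.000779) and 9.58-fold in EV tumours against control (adjusted p = 5.31e-05). The fall ended without any 1 MycT58A library (adjusted p = 0.0668 to 0.0865). Slc7a11, the cystine-glutamate exchanger xCT, stood at 42.6, 74.7 and 29.1 CPM in MycT58A libraries, 40.8, 155 and 115 CPM in EV libraries and 22.1, 41.5 and 32.2 CPM in controls. EV replicates 2 and 3 stood above all other libraries and EV replicate 1 within the control range. Its rise of 3.24-fold in EV tumours (adjusted p = 0.0226) ended without control replicate 1 or 3 or EV replicate 2 (adjusted p = 0.0765, 0.0611 and 0.0588) and with limma-voom (0.0983), and MycT58A tumours did not pass against control (adjusted p = 0.322).

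Both carriers of the ASC type were higher in MycT58A tumours than in cerebellum. Slc1a5, the glutamine carrier ASCT2 (chromosome 7, 16781340 to 16798274), had the smallest p of all members in both tumour groups, at 303, 344 and 232 CPM in MycT58A libraries, 142, 91.7 and 194 CPM in EV libraries and 1.14, 1.95 and 3.13 CPM in controls. It rose 141-fold in MycT58A (edgeR adjusted p = 2.53e-05) and 68.7-fold in EV tumours (adjusted p = 3.92e-05). MycT58A libraries all exceeded EV libraries, at 2.06-fold (adjusted p = 0.108, or 0.0496 without EV replicate 3). Slc1a4, the serine and alanine carrier ASCT1, averaged 91 ± 30.6 CPM in MycT58A, 46.4 ± 14.1 CPM in EV and 34 ± 4.96 CPM in control libraries (SD, n = 3). It rose 2.68-fold in MycT58A tumours (adjusted p = 0.00403) and stood at 1.36-fold in EV tumours (adjusted p = 0.237). Against EV tumours it passed without EV replicate 2 (0.0437) and with DESeq2 (0.041), and not with all 9 libraries in edgeR (adjusted p = 0.0785).

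Of the cationic carriers, Slc7a1 rose in MycT58A tumours, and Slc7a2 and Slc7a3 did not pass with all 9 libraries in edgeR. Slc7a1, the widely used arginine and lysine carrier CAT1, stood at 270.4, 372 and 255 CPM in MycT58A libraries, 102, 31.7 and 221 CPM in EV libraries and 44.4, 40 and 47 CPM in controls, a rise of 6.83-fold in MycT58A tumours (edgeR adjusted p = 0.00349). EV replicate 2 lay below every control, and EV tumours did not pass (adjusted p = 0.056), but did without that library (0.00126). Slc7a1 stood at 2.53-fold in MycT58A against EV tumours (adjusted p = 0.146), and at 4.45-fold without EV replicate 3 (0.0182). Slc7a2, the inducible CAT2, averaged 32.6 ± 8.06 CPM in MycT58A, 18.1 ± 15.8 CPM in EV and 33.9 ± 3.6 CPM in control libraries (SD, n = 3). Without EV replicate 2, edgeR called it 3.76-fold lower in EV tumours against control (adjusted p = 0.000391) and 3.64-fold higher in MycT58A against EV tumours (0.00486). Slc7a3, the related CAT3, had the widest spread of any tested member among EV libraries, 8.03 log2 units, at 7.41, 28.6 and 3.32 CPM in MycT58A libraries, 0.137, 57.2 and 1.25 CPM in EV libraries and 1.59, 1.46 and 0.747 CPM in controls. EV replicate 2 was the highest of all libraries for Slc7a3 and EV replicate 1 the lowest. Slc7a3 passed in MycT58A tumours against control without EV replicate 2 (10.3-fold higher, adjusted p = 0.0153) and in EV tumours without EV replicate 1 (22.9-fold higher, 0.031), and its EV value turned lower without EV replicate 2 (log2 -0.94). With only MycT58A and control libraries in the fit Slc7a3 passed in MycT58A tumours (edgeR adjusted p = 0.00579), as it did with limma-voom (0.0144). DESeq2 called it higher in MycT58A (adjusted p = 0.0323) and in EV tumours (0.0112).

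Carriers of small neutral amino acids and glycine that are used by mature neurons and glia were mostly lower in tumours. Slc38a1, a glutamine carrier of neurons, stood at 217, 215 and 221 CPM in MycT58A libraries, 11.8, 26.9 and 126 CPM in EV libraries and 389.6, 522 and 510.1 CPM in controls. The MycT58A libraries lay within 0.04 log2 units of each other, and EV replicate 3 stood far above the other EV libraries. Slc38a1 fell 8.66-fold in EV tumours (edgeR adjusted p = 0.00766, 24.2-fold without EV replicate 3), and in MycT58A tumours it stood 2.17-fold lower (adjusted p = 0.192, or 0.00979 without EV replicate 3). The MycT58A value also passed with only MycT58A and control libraries in the fit (edgeR adjusted p = 0.000142) and with limma-voom (0.000325). Each of those settings called 80.5% of all genes in that comparison. Between the tumour groups Slc38a1 stood at 3.98-fold in MycT58A (adjusted p = 0.105), and at 11.3-fold without EV replicate 3 (0.00201). Slc38a3, the glutamine exporter of astrocytes, averaged 19.4 ± 4.21 CPM in MycT58A, 20.5 ± 12.5 CPM in EV and 111 ± 9.96 CPM in control libraries (SD, n = 3). It fell 5.72-fold in MycT58A (adjusted p = 0.00117) and 5.41-fold in EV tumours (adjusted p = 0.00167). Slc38a5, a related glutamine carrier at under 5 CPM in all libraries, fell 12.1-fold in MycT58A (adjusted p = 0.00374, 31.6-fold without MycT58A replicate 1) and 6.19-fold in EV tumours (adjusted p = 0.0151, or 0.113 with limma-voom). Slc38a2, the carrier that amino-acid shortage induces, averaged 418 ± 31.4 CPM in MycT58A, 331 ± 101 CPM in EV and 161 ± 26 CPM in control libraries (SD, n = 3). It was the exception in this family and rose 2.59-fold in MycT58A (adjusted p = 0.00202) and 2.06-fold in EV tumours (adjusted p = 0.00903). Slc6a9, the glycine carrier GlyT1 of glia, averaged 57.1 ± 25.9 CPM in MycT58A, 36.6 ± 10.3 CPM in EV and 199.7 ± 43.3 CPM in control libraries (SD, n = 3). It fell 3.5-fold in MycT58A (adjusted p = 0.00229) and 5.45-fold in EV tumours (adjusted p = 0.000677), and shares 1429 exon bases with Ccdc24 on the opposite strand. Summed astrocyte markers were lower in every tumour library than in any control, and their part in these falls was not tested. Of the 9 genes, 8 were called lower in MycT58A and 7 in EV tumours against control, and 0 higher. Gfap passed neither in MycT58A (edgeR adjusted p = 0.275) nor in EV tumours (0.69), and Gja1 stood 1.45-fold higher in EV tumours (0.114).

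The related carriers of branched-chain amino acids, Slc43a1 and Slc43a2, moved in opposite directions. Slc43a1 (LAT3) stood at 58.4, 51.3 and 48.7 CPM in MycT58A libraries, 0.514, 26.6 and 9.92 CPM in EV libraries and 0.123, 0.177 and 0 CPM in controls, with 3, 4 and 0 counts behind the control values. It rose 495-fold in MycT58A (edgeR adjusted p = 0.000994, 764-fold without control replicate 2) and 116-fold in EV tumours (adjusted p = 0.00353). The EV fold was 48.1 without EV replicate 2 and 179 without control replicate 2, and these folds rest on few control counts. Slc43a2 (LAT4) stood at 10.7, 5.32 and 11 CPM in MycT58A libraries, 20, 46.8 and 16.6 CPM in EV libraries and 251, 214 and 244 CPM in controls. All tumour libraries lay below the controls, and Slc43a2 fell 26.2-fold in MycT58A (edgeR adjusted p = 0.000102) and 8.5-fold in EV tumours (adjusted p = 0.000617, 12.8-fold without EV replicate 2). Against EV tumours Slc43a2 stood 3.09-fold lower in MycT58A tumours (adjusted p = 0.0521). It passed with library size alone (0.0479), with DESeq2 (0.00336) and without EV replicate 1 (0.0439) or 3 (0.0139), and stood at log2 -1.02 without EV replicate 2.

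**Figure D4:**
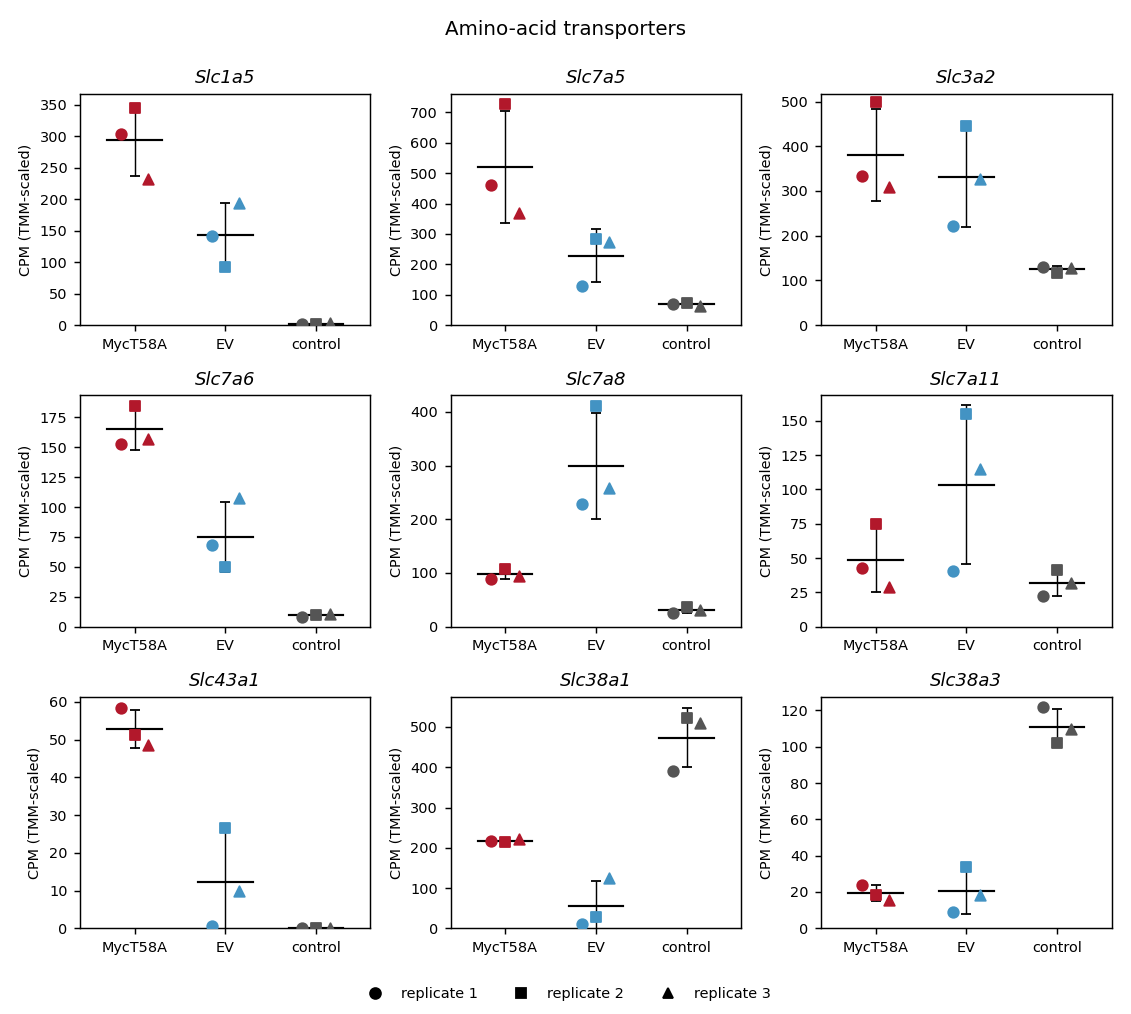
CPM of 9 amino-acid transporters in each library of MycT58A tumours, EV tumours and normal cerebellum (left to right, linear axes from 0). Symbols are single libraries by replicate, lines are means and bars SD (n = 3, bars that reach below 0 are cut there). Slc1a5, Slc7a5 and Slc7a6 are highest in MycT58A, lower in EV and lowest in control libraries, Slc7a8 is highest in EV libraries, and Slc38a1 and Slc38a3 are highest in controls.

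Levels of different members can be set side by side only per length, here as group means of CPM per kilobase of merged GENCODE vM21 exons. In MycT58A tumours the members of highest CPM per kilobase were Asns (349.9), Phgdh (236), Glul (187), Slc7a5 (140.3), Psat1 (129.6) and Slc3a2 (108). In EV tumours the means were 378 for Glul, 209 for Asns, 153 for Phgdh and 93.8 for Slc3a2. That order rested on EV replicate 2, and without it Phgdh (214), Asns (182) and Glul (166) followed in turn. In cerebellum Glul (349) and Got1 (139.9) led, and Asns (40.1) came next. Merged exons overstate the length of genes with long alternative exons, so small differences in this order carry no weight.

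The libraries of a group did not agree equally well on these genes. Over the 38 tested members the median range among the 3 libraries was 0.75 log2 units in MycT58A tumours, 1.11 in EV tumours and 0.42 in controls, and over all genes it was 0.39 in MycT58A tumours, 1.22 in EV tumours and 0.33 in controls. EV tumours thus spread over the members about as over all genes, whereas in MycT58A tumours the members spread more than the median gene. MycT58A replicate 2 was the highest of its group for 28 of the 38 members (73.7%), where it was highest for 29.3% of all genes. It stood at least 1.5-fold above the mean of MycT58A replicates 1 and 3 for 19 members (50%), against 5.42% of all genes (0.1 CPM added). By role these were 8 of 9 regulators and effectors, 5 of 12 enzymes and 6 of 17 transporters. The ratio was 7.0-fold for Trib3, 5.32-fold for Slc7a3, 2.61-fold for Atf3, 2.4-fold for Pycr1, 2.38-fold for Atf5, 2.17-fold for Ddit3 and 2.09-fold for Chac1. The library closest to this in the other groups, EV replicate 3, had 34.2% of members and 20.6% of all genes at least 1.5-fold above the other EV libraries. These are values of 1 library and have no test.

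Among the genes listed beside the members, those of the eIF2 and ATF4 list stood at least 1.5-fold higher in MycT58A replicate 2 for 5 of 26 (19.2%), namely Nupr1 (3.39-fold), Gdf15 (2.77-fold), Sesn2 (2.26-fold), Vldlr (1.56-fold) and Stc2 (1.56-fold). For the further serine, glycine and proline enzymes it was 3 of 22 and for the further transporters 2 of 24. That library held the most counts (30410089) and had the lowest summed microglia markers (73.3 CPM) and astrocyte markers (168 CPM) of all 9 libraries, with proliferation genes at 2137 CPM, the lowest of its group. Oligodendrocyte markers (7 genes) stood at 58.8 CPM in it, also the lowest of all 9, at 693 and 90.6 CPM in MycT58A replicates 1 and 3, at 79.2 to 299.8 CPM in EV libraries and at 2848 to 5239.9 CPM in controls. Its endothelial (108 CPM) and pericyte and fibroblast sums (1766 CPM) were the highest of its group. The part of these in its levels was not tested. Without MycT58A replicate 2, 20 members rose and 6 fell in MycT58A tumours against control, where 52.6% of all genes were called. Against EV tumours edgeR then called 0 members higher and 0 lower and 0.374% of all genes, with 9 members higher and 7 lower at an unadjusted p under 0.05 (10.2% and 12.4% of all genes).

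**Figure D5:**
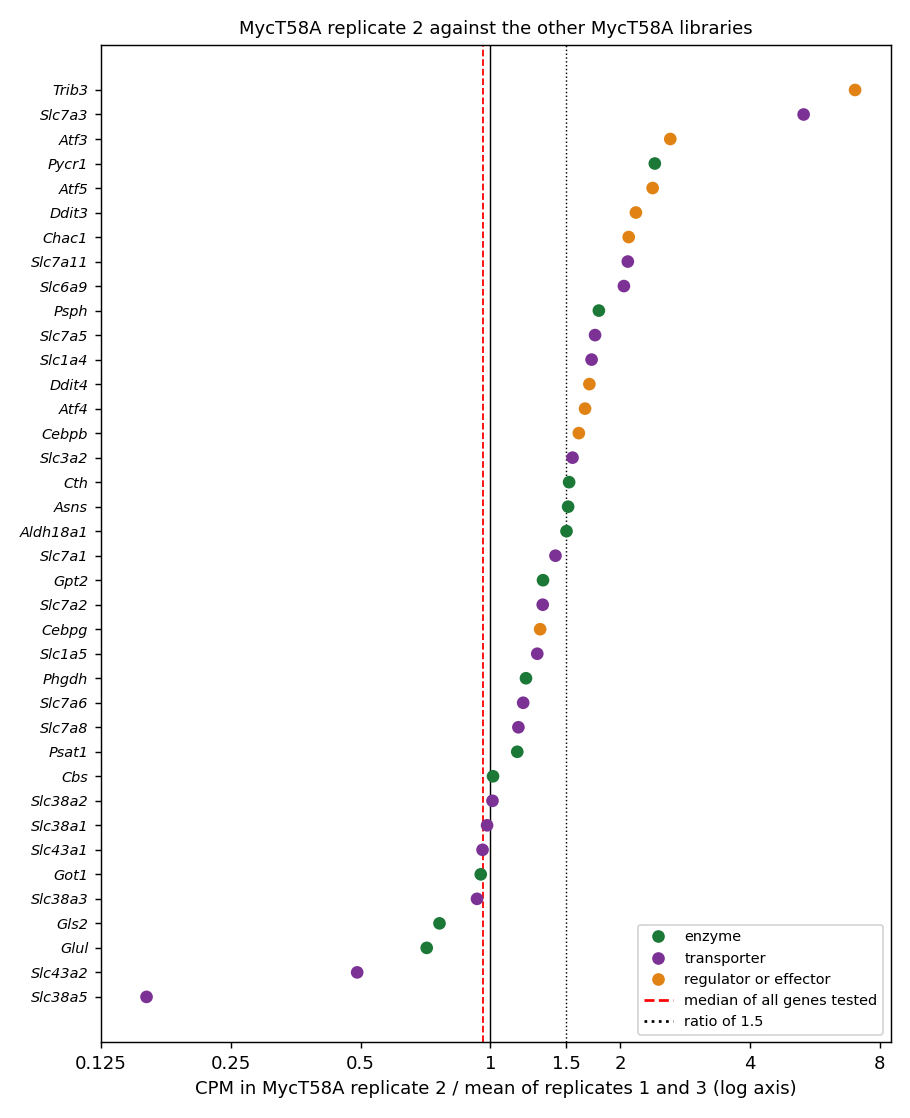
Ratio of CPM in MycT58A replicate 2 to the mean of MycT58A replicates 1 and 3 for the 38 tested members (log axis), coloured by role. The solid line marks equal levels, the dotted line a ratio of 1.5 and the dashed red line the median of all 15171 genes tested. Of the points, 19 lie at or right of 1.5, with Trib3 and Slc7a3 furthest out and Slc38a5 and Slc43a2 furthest to the left.

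Genes of the same pathways outside the member list were read from 3 further lists, also chosen with earlier results of these data known. Of 25 other serine, glycine and proline enzymes 22 were tested, and 10 rose and 5 fell in MycT58A, and 11 rose and 4 fell in EV tumours against control. That is 68.2% in each, where 62.2% of all genes were called in MycT58A and 57% in EV tumours. Mthfd2, the mitochondrial folate enzyme downstream of serine, rose 7.46-fold in EV tumours (edgeR adjusted p = 0.000105) and was the one gene of this list called between the tumour groups (2.14-fold higher in MycT58A, adjusted p = 0.0442). Bcat2, a branched-chain transaminase, rose 7.62-fold in EV tumours (adjusted p = 0.00026), while the cytosolic alanine transaminase Gpt fell 7.89-fold in EV tumours (adjusted p = 0.000339). Gpt fell in MycT58A tumours too (7.66-fold, adjusted p = 0.000291), where Gpt2 rose.

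All 26 genes of the list of eIF2 kinases, phosphatase subunits and other ATF4 or CHOP targets were tested, and 15 rose and 2 fell in MycT58A, and 11 rose and 2 fell in EV tumours against control. Those are 65.4% of the list in MycT58A and 50% in EV tumours, where 62.2% and 57% of all genes were called. Mars, a tRNA synthetase, rose 2.3-fold in EV tumours (edgeR adjusted p = 0.00138). Gdf15, a secreted stress protein, had 58, 133 and 31 counts in MycT58A libraries, 191, 181 and 18 counts in EV libraries and 0, 2 and 1 counts in controls. It passed against control in MycT58A (edgeR adjusted p = 0.00224) and in EV tumours (adjusted p = 0.00144), with too few control counts for a fold. Impact and Vldlr were the genes that fell, in MycT58A and in EV tumours. Impact, an inhibitor of GCN2 that is high in neurons, fell 5.89-fold in MycT58A (adjusted p = 0.00033) and 5.9-fold in EV tumours (adjusted p = 0.000405). Vldlr, a lipoprotein and reelin receptor, fell 4.04-fold in MycT58A (adjusted p = 0.00102) and 6.08-fold in EV tumours (adjusted p = 0.000393). Ppp1r15a, the phosphatase subunit that ends the response, passed neither in MycT58A (adjusted p = 0.545) nor in EV tumours (adjusted p = 0.762). Between the tumour groups Cars, a tRNA synthetase, rose 1.93-fold in MycT58A (adjusted p = 0.033).

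Among the further transporters falls outnumbered rises. Of 26, 24 were tested, and 7 rose and 14 fell in MycT58A, and 6 rose and 12 fell in EV tumours against control. Called were thus 87.5% in MycT58A and 75% in EV tumours, against 62.2% and 57% of all genes. Slc16a10, which carries aromatic amino acids, rose 52.9-fold in EV tumours (edgeR adjusted p = 1.5e-05), and Slc43a3, a relative of Slc43a1 that carries purine bases, rose 44.9-fold in EV tumours (adjusted p = 0.000228). The glutamate carriers Slc1a1 of neurons and Slc1a3 of glia fell 43.7-fold (adjusted p = 4.9e-05) and 66-fold (adjusted p = 7.73e-05) in EV tumours. Between the tumour groups Slc1a3 (4.58-fold, adjusted p = 0.0313) and Slc38a4, a system A carrier, rose in MycT58A. Slc38a4 stood at 16.4, 32.2 and 8.18 CPM in MycT58A libraries, 0.377, 2.25 and 0.624 CPM in EV libraries and 0.0409, 0.443 and 0.14 CPM in controls (17.4-fold against EV, edgeR adjusted p = 0.0362). Over the 15 alternative settings the genes called higher in MycT58A than in EV tumours ran over 0 to 6 of the further enzymes, 0 to 8 of the eIF2 and ATF4 list and 0 to 3 of the further transporters. Of all genes 0.232% to 25.7% were called in either direction under those settings. With all 9 libraries in edgeR 4.55%, 3.85% and 8.33% of the lists were called, against 8.3% of all genes.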

How the data were processed

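RNA-seq counts per gene symbol of 9 libraries were deposited by the authors as whole numbers, and per the submitters' processing notes bcl2fastq, TopHat and edgeR were used with build mm10. The sources used here do not give the versions, the read counter, the annotation or the strand setting. Groups were read from the source name and genotype of each sample. Replicate numbers follow sample order and pair nothing. With edgeR 4.0.16 in R 4.3.3, filterByExpr (minimum count 10, minimum total 15) left 15171 of 24444 genes. Counts were scaled by TMM and tested with glmQLFit and glmQLFTest in 1 model of 3 group means (6 residual degrees of freedom). P-values were adjusted by Benjamini-Hochberg over all genes tested at a threshold of 0.05. Each SE divides the absolute log2 fold change by the root of F. Ranges among libraries are on the log2 CPM scale. Exon lengths and positions come from GENCODE vM21 (mm10), and start-site windows from RefSeq. After the fit, the test was also run on counts simulated from the real means, with 1 dispersion per gene shared by all groups. That check does not cover groups of unequal spread. Members and lists were chosen with earlier results of these data known. A gene of the further lists that the naming rule selects is not reported here.

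Every library value was given for members called between the tumour groups, for the 8 of smallest p in each tumour group against control, for 11 members fixed by name, and for the widest and narrowest EV range. Chac1, Cth, Cbs, Gpt2, Gls2, Atf5, Trib3, Slc7a1, Slc38a1 and Slc43a1 were given in the same way after their values were seen. Other settings tried were edgeR's RLE scaling, unscaled library sizes, testing without a count filter, only the 2 groups compared, DESeq2 1.42.0, limma-voom (limma 3.58.1) with weights per group, and leaving out each library. Figures used matplotlib 3.10.9 under Python 3.11.15.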

Additional observations from a re-analysis of the deposited data

How the results depend on the processing

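No paired analysis was possible because the columns carry no replicate numbers shared between groups. Of 26 members called in EV tumours against control, 20 passed under all 15 alternatives and Slc38a1 under the 14 that gave a value (DESeq2 gave no adjusted p), and of 29 called in MycT58A tumours 26 passed under all 15. Of the 6 called in MycT58A against EV tumours 0 did. At an unadjusted p under 0.05 edgeR had 16 members higher and 3 lower there with all 9 libraries, against 13.3% and 17.9% of all genes. Between the tumour groups, fitting only those 2 groups with edgeR gave 0 higher and 0 lower, DESeq2 10 higher (0.24% and 23.4% of all genes called in these fits), and leaving out 1 library 0 to 12 higher and 0 to 3 lower. The highest counts came without EV replicate 3 (12 and 3, where 25.7% of all genes were called) and without EV replicate 2 (9 and 2, where 16.6% were), against 8.3% of all genes with all 9 libraries, and the cause was not tested. Against control the ranges on leaving out 1 library were 16 to 19 higher and 7 to 9 lower in EV tumours, where 44.9% to 65.9% of all genes were called. In MycT58A tumours they were 20 to 24 higher and 6 to 7 lower, where 51.9% to 70.3% of all genes were called. Library size alone moved the median log2 fold change of all genes from -0.04 to -0.17 between the tumour groups and no member called with TMM changed direction under it. On leaving out 1 library, the log2 fold change in MycT58A against EV tumours changed sign for 9 members that did not pass with all 9 libraries, at -0.92 to 0.91 for Pycr1, -0.70 to 0.072 for Atf5, -0.33 to 0.16 for Ddit4, -0.43 to 1.57 for Trib3, -0.40 to 2.41 for Gls2, -1.41 to 0.17 for Glul, -0.033 to 0.47 for Slc3a2, -1.85 to 4.32 for Slc7a3 and -0.42 to 0.50 for Slc38a3. Its sign also turned with limma-voom with weights per group, at 0.089 for Pycr1, 2.19 for Slc7a3 and 0.15 for Slc38a3. On leaving out 1 library, the log2 fold change in EV tumours against control changed sign for 6 members that did not pass with all 9 libraries in edgeR, at -0.088 to 0.43 for Psph, -0.13 to 0.22 for Cebpg, -0.69 to 0.81 for Chac1, -0.93 to 0.066 for Gpt2, -1.06 to 0.52 for Glul and -0.94 to 4.52 for Slc7a3. Its sign also turned with limma-voom with weights per group, at -0.047 for Chac1 and -0.32 for Glul. On leaving out 1 library, the log2 fold change in MycT58A tumours against control changed sign for 2 members that did not pass with all 9 libraries, at -0.26 to 0.13 for Cbs and -0.19 to 0.14 for Slc7a2. Its sign also turned with no low-count filter, at 0.019 for Slc7a2. The cause was not tested. The counts over the 3 further lists were within 1.5-fold of the main count, or equal to it at 0, for 225 of 270 values. For genes higher in MycT58A than in EV tumours that held for only 0 of 15 values of the further enzymes. It held for 3 of 15 of the eIF2 and ATF4 list and 7 of 15 of the further transporters. For genes lower there, with main counts of 0, it held for 12, 14 and 12 of 15.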
